A study of Mus musculus with 6 samples.

Results

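The 28 genes described here encode the enzymes that make cholesterol, the proteins that control the transcription factor SREBP2, and proteins that move cholesterol into, within and out of cells. They were chosen by name, as a listed gene set, and each was read from the brightest microarray probe set whose platform annotation gave that gene symbol alone. All values are log2 signal unless another scale is named, and array values of a group are given in the order A, B, C. Of the 28, 26 had such a probe set and all 26 passed the filter on low signal, among 8554 genes tested in all. Acat2, an acetyl-CoA thiolase at the head of the pathway, and Soat2, which esterifies cholesterol for storage and lipoproteins, had no single-symbol probe set and were not analysed here.

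The study measured whole-liver total RNA (2 ug per array) on 6 Affymetrix mouse genome arrays, all from livers collected 18 h after partial hepatectomy, an operation that takes out much of the organ and starts its regeneration. The Cre plus group (3 arrays) came from Socs3 fl/fl, Alb-Cre+ mice, called Socs3 h-KO, in which Cre recombinase driven by the albumin promoter removes Socs3 in hepatocytes. The Cre minus group (3 arrays) came from their Socs3 fl/fl, Alb-Cre- littermates, so both groups carry the floxed allele and both are C57BL/6. The protein made from Socs3 restrains the JAK kinases and STAT3 downstream of IL-6-type receptors. The sources used here do not give the age of these mice, and no array of an unoperated liver or of a mouse with Cre but without the floxed allele was analysed, so effects of Cre itself and of Socs3 loss cannot be told apart. The arrays of each group are labelled A, B and C without stating that each is a separate mouse, so the p-values measure the spread between arrays, which may be technical. Whole-liver RNA also holds RNA of Kupffer, endothelial, stellate and other cells in which the albumin promoter is not active.

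SREBP2 is a transcription factor made as a precursor in the membrane of the endoplasmic reticulum. When sterols are scarce, the escort protein SCAP carries it to the Golgi, where it is cut and its active part goes to the nucleus and turns on nearly every gene of cholesterol synthesis; when sterols are plentiful, INSIG1 or INSIG2 holds SCAP in the endoplasmic reticulum and the precursor stays uncut. The liver is the main organ that makes, takes up and secretes cholesterol, and its synthesis genes are known to move together for this reason.

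Promoter sequences of 4 members are shown because they represent the roles described below and the results turn on them: a textbook SREBP2 target at the head of the pathway (Hmgcs1), the synthesis gene that separated the groups (Nsdhl), a control gene that is itself an SREBP2 target (Insig1), and the efflux gene with the largest difference among the members (Abca1). Each is the RefSeq window of 250 bases before to 50 bases after the gene start on the gene's own strand, build GRCm38.p6. Capitals mark exact matches, on either strand, to the core of the sterol regulatory element (TCACNCCAC), the CCAAT box bound by NF-Y (CCAAT) and a GC box bound by Sp1 (GGGCGG), and no base lay in more than 1 motif. The Hmgcs1 window is chr13:119690101-119690400, plus strand.
Hmgcs1: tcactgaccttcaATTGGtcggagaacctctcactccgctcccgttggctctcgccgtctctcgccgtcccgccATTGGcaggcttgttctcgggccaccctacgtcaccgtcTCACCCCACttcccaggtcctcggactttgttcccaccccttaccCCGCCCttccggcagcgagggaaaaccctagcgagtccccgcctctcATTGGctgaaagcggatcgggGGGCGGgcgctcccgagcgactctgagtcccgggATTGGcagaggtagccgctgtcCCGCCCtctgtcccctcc
The Nsdhl window is chrX:72918271-72918570, plus strand.
Nsdhl: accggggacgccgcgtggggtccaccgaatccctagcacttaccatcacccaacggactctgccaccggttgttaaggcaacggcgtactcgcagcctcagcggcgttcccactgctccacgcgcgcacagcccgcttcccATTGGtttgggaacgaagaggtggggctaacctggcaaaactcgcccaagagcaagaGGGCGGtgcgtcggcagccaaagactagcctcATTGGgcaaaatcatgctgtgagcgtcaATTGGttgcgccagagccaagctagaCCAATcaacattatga
The Insig1 window is chr5:28071162-28071461, plus strand.
Insig1: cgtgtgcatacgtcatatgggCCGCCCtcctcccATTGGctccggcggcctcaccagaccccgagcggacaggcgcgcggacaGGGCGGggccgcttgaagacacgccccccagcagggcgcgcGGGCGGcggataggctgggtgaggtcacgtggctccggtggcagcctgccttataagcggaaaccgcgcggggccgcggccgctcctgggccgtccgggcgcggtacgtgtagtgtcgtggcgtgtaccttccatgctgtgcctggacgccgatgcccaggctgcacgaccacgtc
The Abca1 window is chr4:53159846-53160145, minus strand.
Abca1: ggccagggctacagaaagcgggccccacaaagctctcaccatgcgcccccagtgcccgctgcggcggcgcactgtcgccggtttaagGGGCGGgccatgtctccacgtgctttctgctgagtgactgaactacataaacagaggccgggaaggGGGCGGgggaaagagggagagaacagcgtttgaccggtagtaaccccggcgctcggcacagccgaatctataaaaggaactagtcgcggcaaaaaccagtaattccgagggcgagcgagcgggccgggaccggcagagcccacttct

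In these windows the letters of the sterol element core occurred once, in Hmgcs1, where the match began at base -137 relative to the start. Hmgcs1 also held 4 CCAAT and 3 GC boxes, Nsdhl held 4 and 1, Insig1 held 1 and 3, and Abca1 held 0 CCAAT boxes and 2 GC boxes. RefSeq windows were matched by symbol for 21 of the 28 members, 27 windows in all. The members without an entry were Fdft1, Fdps, Npc1, Scarb1, Soat2, Sqle and Stard4. The CCAAT box was in 66.7% of the members' windows against 37.4% of all 32851 promoters, and the GC box was in 85.2% against 35.7%. Of the 15 synthesis genes with a window, 14 held a CCAAT box and 14 a GC box. The sterol element core was in 3.70% of the members' windows, a single window, against 1.24% of all promoters. A match is a string of letters and not a bound site, and elements that differ from this core by a base were not counted.

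Over the whole series the 6 arrays were alike in scale, with medians of 2.98 to 3.02 on the log2 scale. Over the genes tested, correlations were 0.987 to 0.990 within Cre plus, 0.995 for each pair within Cre minus, and 0.982 to 0.993 between the groups, so the Cre plus arrays differed more among themselves. Cre plus B correlated more closely with each Cre minus array (0.991 to 0.993) than with Cre plus A (0.989) or Cre plus C (0.987). The targeted gene, Socs3, read 7.44, 6.69 and 7.47 in the Cre plus arrays, against 9.09, 9.30 and 9.24 in the Cre minus arrays. Its level was below every Cre minus array in every Cre plus array and averaged 24.9% of the Cre minus level (log2 difference -2.01 ± 0.22, limma adjusted p = 0.0732). The sources used here do not say whether this probe set lies inside the deleted stretch. By average, 3 of the 7 hepatocyte markers tested were higher and 4 lower in Cre plus, 9 of 10 sinusoidal endothelium markers were lower, and 5 of 8 stellate cell markers were higher. Of all 8554 genes tested, 3979 were higher and 4575 lower. Without overlap, 4 of the 10 endothelium markers and 1 of the 7 hepatocyte markers were lower, where 11.9% of all genes were so. In the other direction, 1 stellate cell marker and 1 hepatocyte marker were higher without overlap, where 9.21% of all genes were so. Of the cholangiocyte markers 1 of 5 listed passed the filter on low signal (Sox9), and of the lymphocyte markers 0 of 5.

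None of the 26 members passed the limma test at an adjusted p under 0.05 (0 of 26), a threshold that 0.0234% of all genes tested met. At an unadjusted p under 0.05, 3 members were higher in Cre plus (Nsdhl, Insig1 and Abca1), against 6.62% of all genes, and 3 were lower (Scap, Insig2 and Npc1), against 8.21% of all genes. The same 6 genes were those whose groups did not overlap. That is 3 of 26 with every Cre plus array above every Cre minus array, where 9.21% of all genes were so, and 3 of 26 with every Cre plus array below, where 11.9% of all genes were so. The shares without overlap are near the background. With any array left out, more of all genes separated, since groups of 2 and 3 arrays part more easily. When Cre plus C was left out, 9 of 26 members (34.6%) were higher without overlap, where 15.3% of all genes were so. When Cre plus A was left out, 7 of 26 (26.9%) were lower without overlap, where 16.7% of all genes were so, and when Cre plus B was, 5 of 26 (19.2%), where 21.4% of all genes were so. With 3 arrays against 3, the exact two-sided permutation test gives p = 0.1 for each of the 6, the smallest it can give. By average, 16 members were higher and 10 lower in Cre plus, with a median log2 difference of 0.08, against -0.01 over all genes tested. With differences near 0, Mvk changed sign when the arrays were shifted to a common median and Scarb1 when they were quantile normalized. The probe sets of Hmgcs1, Fdft1, Cyp51, Hsd17b7, Srebf2 and Stard4 gave differences of both signs. The members' median was -0.06 when Cre plus A was left out and 0.21 when Cre plus C was.

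**Figure D1:**
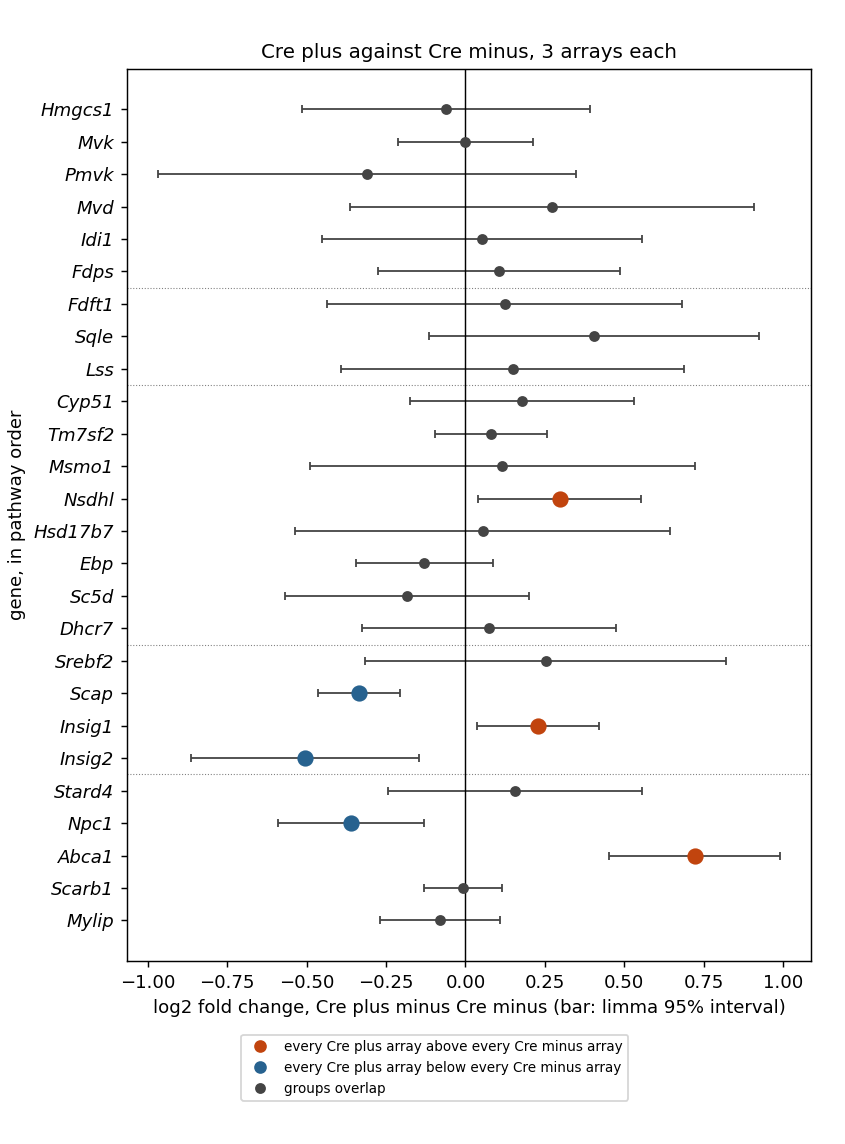
Log2 difference between Cre plus and Cre minus (horizontal axis) for the 26 measured genes in pathway order (vertical axis), with limma 95% intervals as bars and 3 arrays per group; dotted lines part the roles. Orange points (Nsdhl, Insig1, Abca1) have every Cre plus array above every Cre minus array, blue points (Scap, Insig2, Npc1) have every Cre plus array below, and for dark points the groups overlap.

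None of the 17 synthesis enzymes measured passed the limma test (0 of 17), and 1 did at an unadjusted p under 0.05 (Nsdhl). They averaged a log2 difference of 0.07 between Cre plus and Cre minus, 12 higher and 5 lower, and differed instead among the Cre plus arrays. That average was -0.08 when Cre plus A was left out and 0.20 when Cre plus C was. Relative to the Cre minus mean, their average level was 129% (A), 103% (B) and 87.5% (C) in the Cre plus arrays, against 106%, 99.8% and 94.9% in the Cre minus arrays. Both groups ran from high to low in the order A, B, C, over a wider span in Cre plus. The mean shift of all genes tested was 0.02, -0.01 and -0.03 on the log2 scale in the Cre plus arrays, so the enzymes' shifts of 0.37, 0.04 and -0.19 were not those of the whole array.

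**Figure D2:**
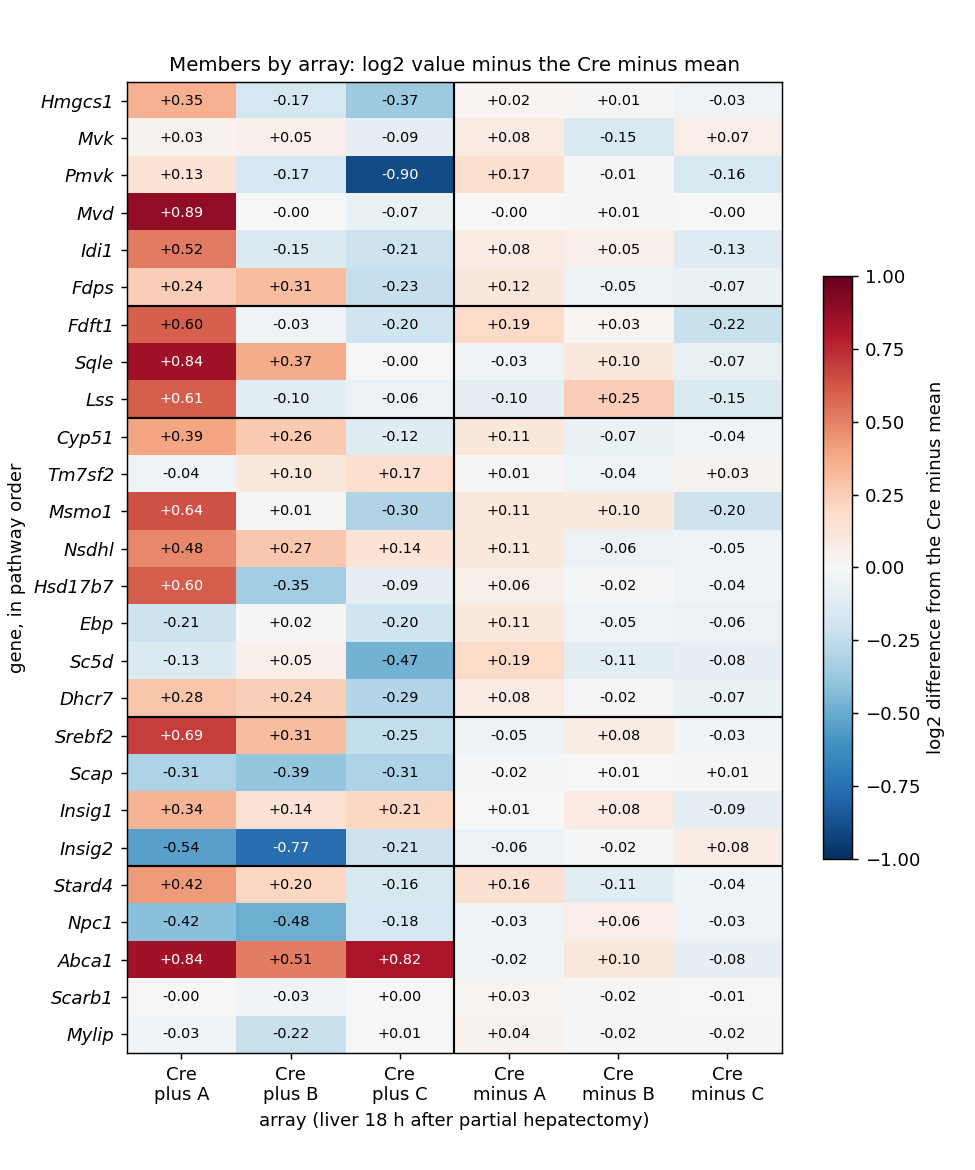
Log2 value of each measured gene minus its Cre minus mean (colour scale), with Cre plus arrays A, B and C left of Cre minus arrays A, B and C and genes in pathway order down the page. Most synthesis enzymes are above the Cre minus mean in Cre plus A (14 of 17) and below it in Cre plus C (15 of 17). The counts are the same in Cre minus A (14 of 17 above) and Cre minus C (15 of 17 below). Mean shifts are smaller there, at 0.08 and -0.07, against 0.37 and -0.19 in Cre plus A and C.

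The early enzymes build mevalonate and the isoprenoid units from acetyl-CoA. Hmgcs1, the cytosolic synthase that makes HMG-CoA, read 13.51, 12.98 and 12.79 in the Cre plus arrays, against 13.17, 13.16 and 13.12 in the Cre minus arrays. The Cre minus arrays lay close together, with Cre plus A above all of them and Cre plus B and C below all of them. The log2 difference of the means was -0.06 ± 0.18 (SE, limma, adjusted p = 0.909). The 4 brighter of its 5 probe sets showed the same order, with Cre plus A highest of the 6 arrays and Cre plus C lower than every Cre minus array.

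Idi1, the isomerase that makes dimethylallyl diphosphate, followed the same order, with 12.15, 11.49 and 11.42 in the Cre plus arrays against 11.72, 11.68 and 11.51 in the Cre minus arrays. Cre plus A was again highest and Cre plus C lowest of the 6 (log2 difference 0.05 ± 0.21, adjusted p = 0.934). Pmvk, which adds the next phosphate to mevalonate phosphate, read 8.22, 7.91 and 7.19 in the Cre plus arrays, against 8.25, 8.07 and 7.93 in the Cre minus arrays. Its Cre plus C value was the lowest of the 6, and the groups overlapped (log2 difference -0.31 ± 0.27, adjusted p = 0.621). The Pmvk difference was -0.53 when Cre plus A was left out and -0.017 when Cre plus C was.

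Mvd, the decarboxylase that makes isopentenyl diphosphate, read 5.72, 4.82 and 4.76 in the Cre plus arrays, against 4.82, 4.83 and 4.82 in the Cre minus arrays. Cre plus A alone stood above the other arrays, which lay close together at low signal. The log2 difference was 0.27 ± 0.26 (adjusted p = 0.657); it was -0.036 when Cre plus A was left out and 0.44 when Cre plus C was. Fdps, which makes farnesyl diphosphate, had 12.27, 12.33 and 11.80 in the Cre plus arrays, against 12.14, 11.98 and 11.96 in the Cre minus arrays, with overlapping groups (log2 difference 0.11 ± 0.16, adjusted p = 0.787). The Fdps difference was 0.036, 0.0061 and 0.27 with Cre plus A, B and C left out in turn. By its brightest probe set Mvk, which phosphorylates mevalonate, was the exception to the wide Cre plus spread. That set read 6.40, 6.42 and 6.28 in the Cre plus arrays against 6.45, 6.21 and 6.43 in the Cre minus arrays, a log2 difference of -0.00 ± 0.09 (adjusted p = 0.998). The other kept Mvk probe set, at low signal, read 4.39, 4.83 and 3.55 in Cre plus against 4.92, 4.60 and 4.29 in Cre minus. There Cre plus C was the lowest of the 6, and the log2 difference was -0.35. In all 6 early enzymes measured, Cre plus C was the lowest of the Cre plus arrays.

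The 3 enzymes that commit farnesyl diphosphate to sterols, from squalene to lanosterol, all had their highest value of the 6 arrays in Cre plus A. Sqle, squalene epoxidase and a rate-controlling step, read 9.59, 9.12 and 8.75 in the Cre plus arrays, against 8.72, 8.85 and 8.68 in the Cre minus arrays. Cre plus A and B were above every Cre minus array and Cre plus C lay among them, and the log2 difference of 0.40 ± 0.21, a 1.32-fold level, was the largest of the enzymes (95% interval 0.923 to 1.90-fold, adjusted p = 0.433). The Sqle difference was 0.18 when Cre plus A was left out and 0.61 when Cre plus C was.

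Fdft1, squalene synthase, read 11.19, 10.56 and 10.39 in the Cre plus arrays, against 10.78, 10.62 and 10.36 in the Cre minus arrays. Lss, which closes the ring to lanosterol, read 9.69, 8.98 and 9.03 in the Cre plus arrays, against 8.99, 9.33 and 8.94 in the Cre minus arrays. For both genes the high value was Cre plus A, while Cre plus B and C lay within the Cre minus range, and the log2 differences of 0.12 ± 0.23 for Fdft1 and 0.15 ± 0.22 for Lss did not pass the test (adjusted p = 0.840 and 0.787).

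Among the 8 enzymes that turn lanosterol into cholesterol, Nsdhl separated the groups. Nsdhl, the decarboxylating dehydrogenase that helps remove the methyl groups at carbon 4 of the sterol, read 10.33, 10.12 and 9.99 in the Cre plus arrays, against 9.96, 9.79 and 9.80 in the Cre minus arrays. Every Cre plus array was above every Cre minus array, with Cre plus C only just so, and within Cre plus the order A, B, C was that of most other enzymes. The level was 1.23-fold (95% interval 1.03 to 1.47; log2 difference 0.30 ± 0.10), and the limma adjusted p over all genes was 0.287.

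Msmo1, the methylsterol oxidase of the same step, did not separate, with 12.51, 11.88 and 11.58 in the Cre plus arrays against 11.98, 11.97 and 11.67 in the Cre minus arrays. Its Cre plus arrays spanned the whole Cre minus range on both sides (log2 difference 0.12 ± 0.25, adjusted p = 0.866). Hsd17b7, the ketoreductase that completes this step, read 9.63, 8.68 and 8.94 in the Cre plus arrays, against 9.09, 9.01 and 8.99 in the Cre minus arrays. Cre plus A was highest, and here Cre plus B was the lowest of the 6 (log2 difference 0.05 ± 0.24, adjusted p = 0.943).

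Cyp51, the lanosterol demethylase, read 10.73, 10.60 and 10.22 in the Cre plus arrays, against 10.45, 10.27 and 10.29 in the Cre minus arrays, with Cre plus A and B highest and Cre plus C lowest of the 6 (log2 difference 0.18 ± 0.14, adjusted p = 0.601). The Cyp51 difference was 0.072 when Cre plus A was left out and 0.33 when Cre plus C was. Dhcr7, the reductase that makes cholesterol from its immediate precursor, read 10.18, 10.15 and 9.62 in the Cre plus arrays, against 9.99, 9.89 and 9.84 in the Cre minus arrays. It showed the same order (log2 difference 0.07 ± 0.16, adjusted p = 0.871).

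The remaining late enzymes departed from that order. Tm7sf2, a sterol reductase, read 10.08, 10.21 and 10.28 in the Cre plus arrays, against 10.12, 10.07 and 10.15 in the Cre minus arrays, with Cre plus A at the bottom of its group (log2 difference 0.08 ± 0.07, adjusted p = 0.637). Ebp, which moves the double bond of the sterol ring, read 11.27, 11.49 and 11.28 in the Cre plus arrays, against 11.58, 11.43 and 11.41 in the Cre minus arrays, and Cre plus A was the lowest of the 6 (log2 difference -0.13 ± 0.09, adjusted p = 0.541). Sc5d, the desaturase that follows Ebp, read 11.41, 11.59 and 11.07 in the Cre plus arrays, against 11.74, 11.43 and 11.46 in the Cre minus arrays. Cre plus C was lowest and the groups overlapped (log2 difference -0.18 ± 0.16, adjusted p = 0.618), while its 3 probe sets gave differences of -0.43 to -0.14. With each array left out in turn, the differences ran from 0.034 (no Cre plus C) to 0.14 (no Cre plus A) for Tm7sf2, from -0.20 (no Cre plus B) to -0.077 (no Cre minus A) for Ebp, and from -0.30 (no Cre plus B) to -0.042 (no Cre plus C) for Sc5d.

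Counted over the 17 enzymes, Cre plus A was the highest Cre plus array in 12 (70.6%, against 33.3% of all genes tested) and Cre plus C the lowest in 13 (76.5%, against 40.5% of all genes). Cre plus A was above Cre plus C in 15 of 17, with a median log2 gap of 0.66, against 55.1% of all genes and a median gap of 0.03. The range over the 3 Cre plus arrays had a median of 0.71 (0.14 to 1.03), against 0.18 (0.01 to 0.41) over the 3 Cre minus arrays. Over all genes the median ranges were 0.25 in Cre plus and 0.19 in Cre minus. These are descriptions of 3 arrays per group, and the enzymes share those arrays, so they are not separate observations of a difference in spread.

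The standard deviation was larger in Cre plus than in Cre minus for 16 of the 17 enzymes (94.1%), Mvk being the exception, against 63.1% of all genes. The same held for 8 of the 9 other members (88.9%), with median SDs of 0.16 in Cre plus and 0.07 in Cre minus. Among the neighbouring lists described below, the share ran from 50.0% (isoprenoid branches) to 76.9% (bile acid synthesis and sterol secretion). The median SD of the enzymes was 0.37 in Cre plus and 0.10 in Cre minus, where all genes had 0.13 and 0.10. Leaving out Cre plus A or Cre plus C lowered the count to 12 of 17 in each case (70.6%, against 54.8% and 49.9% of all genes), and it was 15 without Cre plus B. Without each Cre minus array in turn it was 16 or 17. The array that was high in the enzymes was also high in both neutrophil markers tested, S100a8 and S100a9, of 5 listed, and in Sox9, the 1 cholangiocyte marker tested. Sox9 read 6.70, 5.94 and 5.96 in the Cre plus arrays, against 5.60, 5.95 and 5.91 in the Cre minus arrays. The summed linear signal of S100a8 and S100a9 was 1691 in Cre plus A, against 492 and 605 in Cre plus B and C and 573 to 603 in the Cre minus arrays, and the part of neutrophils or cholangiocytes in the enzymes' values was not tested. The 7 hepatocyte markers had mean log2 shifts of -0.07, -0.12 and 0.09 in the Cre plus arrays, an order unlike that of the enzymes. The 8 stellate cell markers, at 0.11, -0.11 and 0.29, also had another order. Mean shifts of the 11 Kupffer cell and macrophage markers (-0.27, -0.33 and -0.47) ran in the enzymes' order. So did those of the 10 sinusoidal endothelium markers (-0.07, -0.10 and -0.20), and those of all genes tested (0.02, -0.01 and -0.03). By median neither marker list had that order. The medians were -0.35, -0.31 and -0.48 for Kupffer cells and macrophages, and -0.26, -0.08 and -0.27 for the endothelium. The part of these cells in the enzymes' values was not tested.

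**Figure D3:**
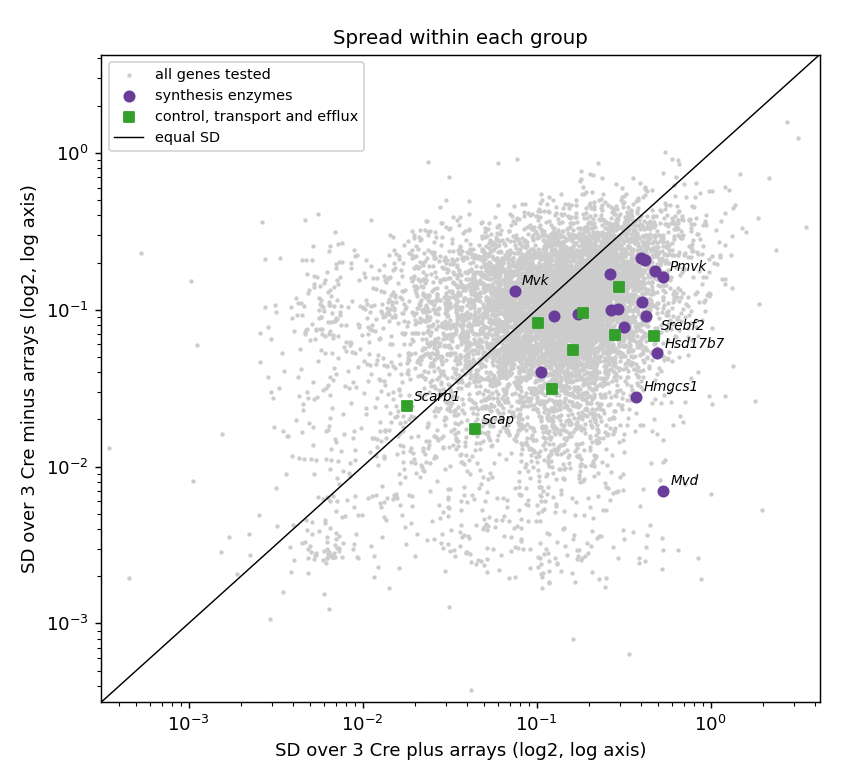
Standard deviation over the 3 Cre plus arrays (horizontal, log2 values, log axis) against that over the 3 Cre minus arrays (vertical, log axis) for all 8554 genes tested (grey), the 17 synthesis enzymes (purple circles) and the 9 other measured members (green squares); the line marks equal values. Of the enzymes, 16 lie to the right of the line, with Mvk to its left.

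The SREBP2 control proteins were split in direction, with Insig1 higher and both Scap and Insig2 lower in every Cre plus array than in any Cre minus array. Scap, the sterol-sensing escort of SREBP2, read 8.86, 8.79 and 8.86 in the Cre plus arrays, against 9.15, 9.18 and 9.19 in the Cre minus arrays. Both groups were tight and well apart, unlike those of the enzymes. The Cre plus level was 79.3% of the Cre minus level (log2 difference -0.33 ± 0.05, 95% interval -0.46 to -0.20), and the limma adjusted p of 0.0995 did not pass the threshold. In whole-liver RNA, fewer cells of a type and less RNA per cell cannot be told apart, here and for each gene below.

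Insig2, the retention protein that in liver is expressed independently of SREBP2, read 12.17, 11.95 and 12.51 in the Cre plus arrays, against 12.66, 12.69 and 12.79 in the Cre minus arrays. Every Cre plus array was below every Cre minus array, Cre plus C by the least and Cre plus B by the most. The level was 70.5% of Cre minus (log2 difference -0.50 ± 0.15, adjusted p = 0.235). All 3 probe sets of Insig2 kept the groups apart, with differences of -0.62 to -0.50.

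Insig1, the retention protein whose gene is an SREBP2 target, read 9.57, 9.37 and 9.43 in the Cre plus arrays, against 9.23, 9.30 and 9.14 in the Cre minus arrays. Cre plus A was highest, as in the enzymes, but all 3 Cre plus arrays were above all 3 Cre minus arrays. The level was 1.17-fold (95% interval 1.03 to 1.34; log2 difference 0.23 ± 0.08, adjusted p = 0.278), from a single probe set. Srebf2, the gene of SREBP2 and also a target of its own product, read 7.08, 6.70 and 6.14 in the Cre plus arrays, against 6.34, 6.47 and 6.36 in the Cre minus arrays. By this brightest probe set its arrays had the order of the enzymes, Cre plus A and B above every Cre minus array and Cre plus C below them all. The log2 difference was 0.25 ± 0.23 (adjusted p = 0.643). It was 0.033 when Cre plus A was left out and 0.50 when Cre plus C was. The other kept Srebf2 probe set, at low signal, read 4.777, 4.786 and 4.783 in Cre plus against 4.786, 4.827 and 4.889 in Cre minus. There Cre plus A was the lowest of the 6, and the log2 difference was -0.05.

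**Figure D4:**
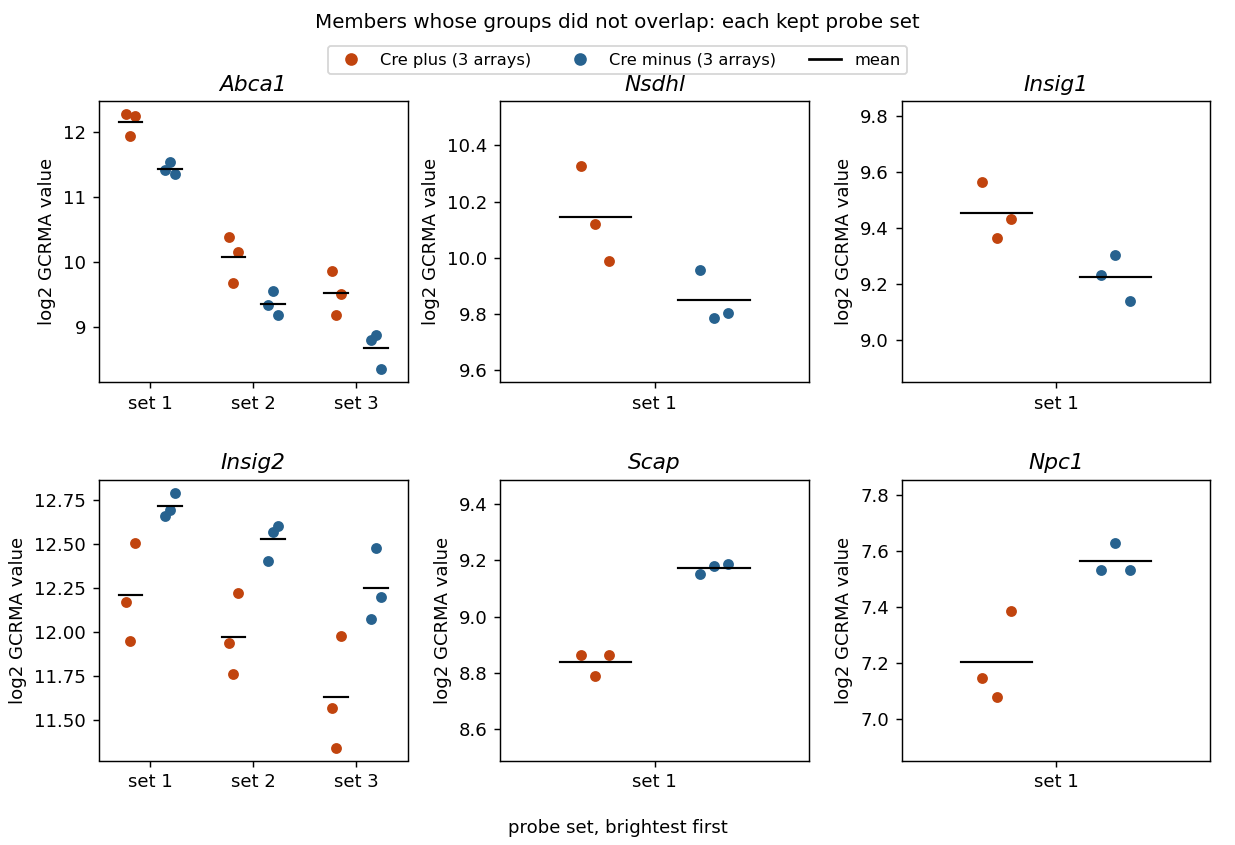
Log2 values by array for the 6 genes whose groups did not overlap, with each kept probe set of a gene shown, brightest first. Cre plus arrays are left of Cre minus arrays in each probe set. By the brightest probe set of each gene, Abca1 shows the widest gap between the groups, 11.94 or more in Cre plus against 11.53 or less in Cre minus, and Scap the tightest groups.

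Of the 5 transport genes measured, Abca1 was higher and Npc1 lower in every Cre plus array than in any Cre minus array. Abca1, the pump that loads cholesterol onto apolipoprotein A-I to form HDL and a target of the sterol-activated receptor LXR, read 12.27, 11.94 and 12.24 in the Cre plus arrays, against 11.40, 11.53 and 11.35 in the Cre minus arrays. All 3 Cre plus arrays were clearly above all 3 Cre minus arrays, with Cre plus B nearest to them. The level was 1.65-fold (95% interval 1.37 to 1.99; log2 difference 0.72 ± 0.11), the largest difference among the 26 members, and the limma adjusted p was 0.0985. It passed only when genes of lower signal were left out of the test (log2 over 6 in at least 3 arrays, adjusted p = 0.0464), in a range of adjusted p from 0.0464 to 0.336 over the alternatives. The 3 probe sets of Abca1 gave 0.71 to 0.84 and each kept the groups apart.

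Npc1, which exports cholesterol from lysosomes, read 7.15, 7.08 and 7.38 in the Cre plus arrays, against 7.53, 7.63 and 7.53 in the Cre minus arrays. Every Cre plus array was below every Cre minus array, and the level was 77.9% of Cre minus (log2 difference -0.36 ± 0.09, adjusted p = 0.200). Markers of Kupffer cells and macrophages, which also express Abca1 and Npc1, were lower in Cre plus on average for all 11 tested of 12 listed. Of these, 7 were lower without overlap, where 11.9% of all genes were so. The summed linear signal of these 11 was 3141 to 3866 in Cre plus and 4272 to 4672 in Cre minus. In Cre plus the marker sum was lower, Npc1 was lower and Abca1 was higher. The part of these cells in the Abca1 and Npc1 values was not tested.

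Scarb1, the HDL receptor SR-BI, was nearly the same in all arrays, with 10.13, 10.11 and 10.14 in the Cre plus arrays against 10.16, 10.12 and 10.13 in the Cre minus arrays. Its log2 difference was -0.01 ± 0.05, with a 95% interval of -0.13 to 0.11 (adjusted p = 0.957). Mylip, the ubiquitin ligase also called IDOL that degrades lipoprotein receptors and is another LXR target, read 5.48, 5.28 and 5.51 in the Cre plus arrays, against 5.54, 5.49 and 5.48 in the Cre minus arrays. Its groups overlapped at low signal (log2 difference -0.08 ± 0.08, adjusted p = 0.656), unlike those of Abca1; the difference between these LXR targets was not tested. The Mylip difference was -0.011 when Cre plus B was left out and -0.12 when Cre plus C was. Stard4, a soluble cholesterol carrier and SREBP2 target, read 9.15, 8.93 and 8.57 in the Cre plus arrays, against 8.88, 8.62 and 8.68 in the Cre minus arrays, in the order of the enzymes within Cre plus (log2 difference 0.16 ± 0.16, adjusted p = 0.687). The Stard4 difference was 0.021 when Cre plus A was left out, 0.31 when Cre plus C was, and 0.020 as the mean of its 3 probe sets.

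Neighbouring gene lists of sterol and lipid metabolism were set beside the members. Of 13 other genes of SREBP processing and sterol-regulated degradation measured, 0 passed the limma test, 9 were higher and 4 lower in Cre plus, and 1 separated the groups in each direction. Of all genes, 9.21% were higher and 11.9% lower without overlap. This list ran in the enzymes' order at a smaller size, with mean shifts of 0.06, 0.05 and -0.06 in the Cre plus arrays. Cre plus A was highest of its group in 7 of 13 (53.8%, against 33.3% of all genes). Cre plus C was lowest in 8 of 13 (61.5%, against 40.5% of all genes). Rnf145, a ubiquitin ligase of this system, averaged 6.84 ± 0.14 in Cre plus and 7.16 ± 0.17 in Cre minus (SD, n = 3 each; log2 difference -0.32 ± 0.12, limma adjusted p = 0.293). Erlin1, which binds SREBP complexes in the endoplasmic reticulum, averaged 8.71 ± 0.07 in Cre plus and 8.53 ± 0.07 in Cre minus (SD, n = 3 each; log2 difference 0.18 ± 0.07, limma adjusted p = 0.301). Rabggta, a subunit of a prenyltransferase, averaged 7.70 ± 0.05 in Cre plus and 7.82 ± 0.06 in Cre minus (SD, n = 3 each), and Ggps1, which makes geranylgeranyl diphosphate, averaged 6.47 ± 0.09 in Cre plus and 6.32 ± 0.18 in Cre minus (SD, n = 3 each). They belong to the isoprenoid branches, which draw on the same early enzymes. That list had 4 of 10 higher and 6 lower, 0 past the limma test and 0 without overlap, with mean shifts of 0.04, -0.02 and -0.01 in the Cre plus arrays.

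Genes of fatty acid synthesis driven by SREBP1, the related factor that also depends on SCAP, were lower in 11 of 15 and higher in 4, with 0 past the limma test and 6 lower without overlap. Of all 8554 genes tested, 4575 were lower, and 11.9% were lower without overlap. Elovl5, a fatty acid elongase, averaged 11.74 ± 0.25 in Cre plus and 12.43 ± 0.10 in Cre minus (SD, n = 3 each; log2 difference -0.69 ± 0.14, limma adjusted p = 0.146). Gpam, which starts glycerolipid synthesis, averaged 9.78 ± 0.16 in Cre plus and 10.17 ± 0.03 in Cre minus (SD, n = 3 each; log2 difference -0.40 ± 0.09, limma adjusted p = 0.187). The SREBP1 list did not have the order of the cholesterol enzymes: its mean shifts were -0.18, -0.29 and 0.01 in the Cre plus arrays. Of 19 other sterol handling genes, 13 were lower and 6 higher, 0 past the limma test and 4 lower without overlap, where 11.9% of all genes were so. Their mean shifts of 0.01, -0.05 and -0.13 in the Cre plus arrays were also in the order A, B, C from high to low. The mean shifts of all genes tested (0.02, -0.01 and -0.03) had that order too. By median the list did not have it, with -0.03, -0.01 and -0.08. Stard5, a sterol-binding START protein, averaged 8.71 ± 0.09 in Cre plus and 9.01 ± 0.07 in Cre minus (SD, n = 3 each; log2 difference -0.30 ± 0.07, limma adjusted p = 0.188). Lipa, the lysosomal acid lipase that frees cholesterol upstream of Npc1, averaged 9.31 ± 0.11 in Cre plus and 9.82 ± 0.22 in Cre minus (SD, n = 3 each; log2 difference -0.51 ± 0.13, limma adjusted p = 0.191).

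Genes of bile acid synthesis and sterol secretion, by which the liver disposes of cholesterol, were lower in 12 of 13 and higher in 1, with 0 past the limma test. Of the 13, 7 were lower without overlap, where 11.9% of all genes were so. Their median log2 difference was -0.28, against -0.01 over all genes. Abcg5, which with Abcg8 pumps sterols into bile and is an LXR target like Abca1, read 7.45, 7.27 and 7.77 in the Cre plus arrays, against 8.61, 8.37 and 8.51 in the Cre minus arrays. All 3 Cre plus arrays were below all 3 Cre minus arrays, the opposite direction to Abca1 (log2 difference -1.004 ± 0.14, limma adjusted p = 0.0866). Abcb4, which flips phosphatidylcholine into bile, averaged 10.30 ± 0.11 in Cre plus and 11.01 ± 0.20 in Cre minus (SD, n = 3 each; log2 difference -0.71 ± 0.12, limma adjusted p = 0.106). Abcg8, chosen after its values were seen, read 5.72, 5.32 and 5.64 in the Cre plus arrays, against 5.77, 5.84 and 5.86 in the Cre minus arrays, also below without overlap (log2 difference -0.26 ± 0.11, limma adjusted p = 0.356).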

How the data were processed

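Whole-liver RNA of 3 Cre plus and 3 Cre minus arrays was read as log2 values from the authors' deposited table, made with GCRMA per the submitters' processing notes (the sources used here give no version), so background correction and normalization were the authors'. Precision is limited by the small number of arrays. The table held 45101 probe sets, of which 34958 carried 1 gene symbol in the platform annotation, 932 several and 9211 none. After removing 64 control probe sets, 15563 of any annotation had log2 over 4 in at least 3 arrays. Of these, those with exactly 1 symbol were kept, and the brightest per symbol gave 8554 genes. Groups were compared with limma 3.58.1 (lmFit and eBayes, R 4.3.3), without a block, and p-values were Benjamini-Hochberg adjusted over all genes at 0.05. Fold changes are Cre plus over Cre minus, ± SE.

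The test was tested on simulated data, at 8554 genes with 200 changed. There it recovered 41.9%, 79.9% and 96.7% of changes of 0.5, 1 and 2 on the log2 scale. Of its calls there, 5.95% were false. These shares hold for the simulated data alone, and recovery in the 6 arrays was not tested. In the arrays, 2 of 8554 genes passed. Socs3 (log2 difference -2.01, limma adjusted p = 0.0732) and Abcg5 (log2 difference -1.004, limma adjusted p = 0.0866) did not. The text names every member and, from each neighbouring list, every gene past the threshold and otherwise the 2 of smallest p, plus any gene marked in its sentence as picked afterwards. The members and lists were chosen with earlier results of these data known. Alternatives covered the scaling of arrays, the filter, the limma prior, the choice of probe set, array weights, a replicate block and leaving out each array; the enzyme mean, and the counts of non-overlapping members and of enzyme SDs with an array left out, were chosen after seeing the data.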

Additional observations from a re-analysis of the deposited data

How the results depend on the processing

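Of the 26 members, 16 kept their sign under every alternative run and 10 changed it in at least 1. Over all genes, 2 passed an adjusted p under 0.05 in the limma test, against 0 with no filter on low values, 56 with log2 over 6 in at least 3 arrays (where 1 member, Abca1, passed) and 0 with the replicate block; leaving out each array in turn gave 0 to 13, 1 when Cre plus A was left out, 2 for Cre plus C, 13 for Cre plus B and 0 for each Cre minus array. The mean log2 shifts of the 17 enzymes ran from high to low in the order A, B, C in both groups. They were 0.37, 0.04 and -0.19 in Cre plus, and 0.08, -0.0025 and -0.07 in Cre minus. Whether the letters mark a shared batch was not tested. Over all genes tested, no pairing by the letters A to C was seen. Same-letter deviations from the group means correlated at -0.15, -0.10 and 0.02, and no Cre plus array correlated best with its own letter. With 3 arrays per group, neither such correlations nor the order of the enzymes can decide whether the letters pair the arrays. The replicate block is therefore given for the count alone. Leaving out each array gave 3 to 9 members higher and 3 to 7 lower without overlap, where 11.6% to 16.9% of all genes were higher and 14.6% to 21.4% lower, an enzyme mean of -0.08 to 0.20 and a member median of -0.06 to 0.21. Signs turned for Mvk at 0.0077 with arrays shifted to a common median, Scarb1 at 0.0062 with quantile normalization, Hmgcs1 at 0.053 with the mean of all probe sets and 0.017 with array weights, Hsd17b7 at -0.016 with that mean and -0.080 without probe sets that may cross-hybridise, and Fdft1 at -0.0079 without them. With an array left out, log2 differences ran from -0.027 to 0.26 for Dhcr7, -0.11 to 0.28 for Fdft1, -0.22 to 0.26 for Hsd17b7, -0.18 to 0.19 for Idi1, -0.079 to 0.27 for Lss, -0.14 to 0.32 for Msmo1, -0.036 to 0.44 for Mvd, -0.019 to 0.0047 for Scarb1, -0.27 to 0.091 for Hmgcs1 and -0.077 to 0.042 for Mvk; apart from the arrays left out, the cause was not tested. The kept probe sets of 6 of the 14 members with more than 1 gave both signs.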
